A study of Homo sapiens with 20 samples.

Results

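MDA-MB-231 cells that had taken up nanoparticles and were then lit by a laser held at 46 °C were compared with MDA-MB-231 cells that received the same nanoparticles and no laser. The comparison used 4 libraries from the 46 °C group and 4 from the group with nanoparticles alone, 8 of the 20 in the series, chosen by their labels. MDA-MB-231 is an established human breast cancer cell line of the triple-negative, mesenchymal type. In both groups, wells seeded with 30000 cells spent 24 h at 37 °C and then 4 h in 200 µl of medium that held biomimetic nanoparticles (0.1 mg/ml). The 46 °C wells were then irradiated singly for 10 min with an 808 nm continuous-wave laser, and the RNA of 2 wells was pooled into each sample. The series also holds 4 untreated samples, and 4 samples each from nanoparticle-loaded cells lit at 50 °C and at 54 °C. None of the 20 samples was lit without nanoparticles, and the effects of heat and of light cannot be told apart. No source used here gives the time between irradiation and lysis. The labels do not say that replicates were separate cultures, so a p-value reflects only how these samples vary, which may be technical variation.

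Libraries were made with a QuantSeq 3′ kit, which reads the end of polyadenylated mRNA near its tail. Total counts ran from 2401180 to 3245482 in the 46 °C libraries and from 2709082 to 4538998 with nanoparticles alone, and 12149 of 36601 genes had enough counts to test. The mesenchymal gene VIM, encoding vimentin, was abundant in both groups. It averaged 1672 ± 298 CPM (counts scaled to library size) at 46 °C and 1617 ± 146 CPM with nanoparticles alone (SD, n = 4 each). The epithelial cadherin CDH1 and the progesterone receptor PGR had no count in any of the 8 libraries, and the oestrogen receptor ESR1 had 18 counts in all at 46 °C and 0 with nanoparticles alone. CDH1 and PGR were among only 4 of 15 luminal and epithelial markers without a count. The keratins KRT18 and KRT8 had 2608 and 1590 counts in all at 46 °C, and 4082 and 1799 with nanoparticles alone. Of the markers of other cells, 11 of 12 for blood, 14 of 15 for lymphocytes, 10 of 16 for macrophages (PTPRC and CD163 among them) and 4 of 11 for fibroblasts had no count in these 8 libraries. The summed macrophage markers, mostly CD74, ran from 149 to 201 CPM at 46 °C and from 182 to 252 CPM with nanoparticles alone, and 0 of the 16 tested members of the luminal, macrophage, lymphocyte and fibroblast lists passed, where 2.16% of all tested genes did. In bulk RNA, fewer cells of a kind and less RNA per cell cannot be told apart.

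The heat shock response is the conserved answer of cells to unfolded protein. HSF1, a transcription factor held inactive in resting cells, forms trimers after heat and binds heat shock elements, inverted repeats of the unit GAA, in the promoters of chaperone genes. Their products refold or hold damaged protein, HSP70 with its J-domain partners and HSP110 exchange factors, and HSP90 with its client-loading partners. Heat and other stresses also switch on immediate early genes such as FOS and EGR1, many of them through the serum response factor SRF, which binds the CArG box.

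The promoters of HSPA6, HSPA1A and EGR1, whose mRNAs were among the largest rises, are shown as the letters upstream of the gene starts, read from RefSeq (GRCh38.p14), with capitals marking the 2-unit heat shock elements GAANNTTC and TTCNNGAA in the chaperone genes and CArG boxes in EGR1. The windows, which end where the annotated gene begins or at the RefSeq start, are chr1:161524290-161524539 for HSPA6, chr6:31815293-31815463 for HSPA1A and chr5:138465229-138465478 for EGR1, all on the plus strand.
HSPA6: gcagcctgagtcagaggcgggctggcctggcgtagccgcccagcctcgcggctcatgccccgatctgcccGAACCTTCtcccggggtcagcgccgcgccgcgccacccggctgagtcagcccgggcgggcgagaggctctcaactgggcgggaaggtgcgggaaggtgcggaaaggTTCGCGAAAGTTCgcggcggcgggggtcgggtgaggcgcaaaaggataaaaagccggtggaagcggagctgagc
HSPA1A: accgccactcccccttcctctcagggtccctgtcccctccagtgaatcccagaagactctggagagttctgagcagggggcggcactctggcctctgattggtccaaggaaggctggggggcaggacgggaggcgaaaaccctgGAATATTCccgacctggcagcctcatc
EGR1: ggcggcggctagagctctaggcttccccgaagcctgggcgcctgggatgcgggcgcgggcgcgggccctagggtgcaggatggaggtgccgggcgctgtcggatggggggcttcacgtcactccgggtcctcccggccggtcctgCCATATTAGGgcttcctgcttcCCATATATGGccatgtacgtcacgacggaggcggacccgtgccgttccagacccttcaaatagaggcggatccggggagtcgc

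HSPA6 held 3 matches to the 2-unit element, starting 180, 74 and 69 bases before the RefSeq start, and the last 2 overlap in a 3-unit element. HSPA1A held 1 match, 106 bases before the start, and EGR1 held CArG boxes 105 and 83 bases before it. Over windows of 250 bases before to 50 after each start, searched on both strands, the 3-unit element, GAANNTTC followed directly by NNGAA, stood at 5 of the 13 chaperone genes that rose, at 3 of 50 chaperone genes that were tested and did not pass, and at 0.608% of the 27305 genes with a RefSeq window. The 5 were HSPA6, HSP90AA1, HSP90AB1, DNAJA1 and HSPD1, and the 3 were CHORDC1, DNAJB6 and HSPA8. The 2-unit element, which every 3-unit element contains, stood at 10 of the 13, at 14 of the 50 and at 16.2% of all genes. Among tested genes with a window, 0.463% held the 3-unit and 13.5% the 2-unit element. The 2-unit element stood at 23.1% of the genes called higher and 17.5% of those called lower. Promoter windows were matched for 63 of 72 tested chaperone genes. In the same windows a CArG box stood at 2 of 11 AP-1 and early-response genes that rose, EGR1 and SRF. It stood at 0 of 16 that did not pass and at 1.6% of all genes. The window of FOS held no CArG box, and letters more than 250 bases before its start were not searched. A match describes the letters only and does not show binding.

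At 46 °C, 157 genes were higher than with nanoparticles alone, 1.29% of those tested, and 106 were lower, 0.872% of those tested (edgeR's quasi-likelihood test with Benjamini-Hochberg adjustment, called at an adjusted p under 0.05, with a term for replicates 1 and 2 against 3 and 4). A change of at least 2-fold was seen in 58 of the higher and 37 of the lower genes. The values of the 4 libraries of each group did not overlap for 199 of the 263 called genes, against 6.96% of all tested genes, 3.69% with all 46 °C values above and 3.28% with all below. Without the replicate-pair term the counts were 75 higher and 42 lower, all of them among the calls above. Of the genes described below, HSPA5, HSPE1, HSP90AB1, DNAJA1, DNAJB4, MAFF, FOSL1, CSRNP1, ZMAT3, DUSP1, SPRED1, TGIF1, PMEPA1, CXCL8, AURKA, EDN1, MEX3A, FIZ1, DDHD1, CPTP and MT-ND6 did not pass without it (adjusted p of 0.0582 for MAFF to 0.577 for FOSL1). Scaling by library totals gave 227 higher and 76 lower. Without 46 °C replicate 2 there were 93 higher and 57 lower. The lower count also moved by more than 1.5 times without 46 °C replicate 1 (66) and without nanoparticle replicate 1 (69) or 2 (65). All 263 genes kept their direction in every alternative in which they were tested, but each alternative reused libraries on which the genes were called. The plot of 17 gene lists shows where the changes lay: HSP70-class chaperones and AP-1 and EGR factors on the right, mitochondrially encoded mRNAs on the left, and most other lists around 0.

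**Figure D1:**
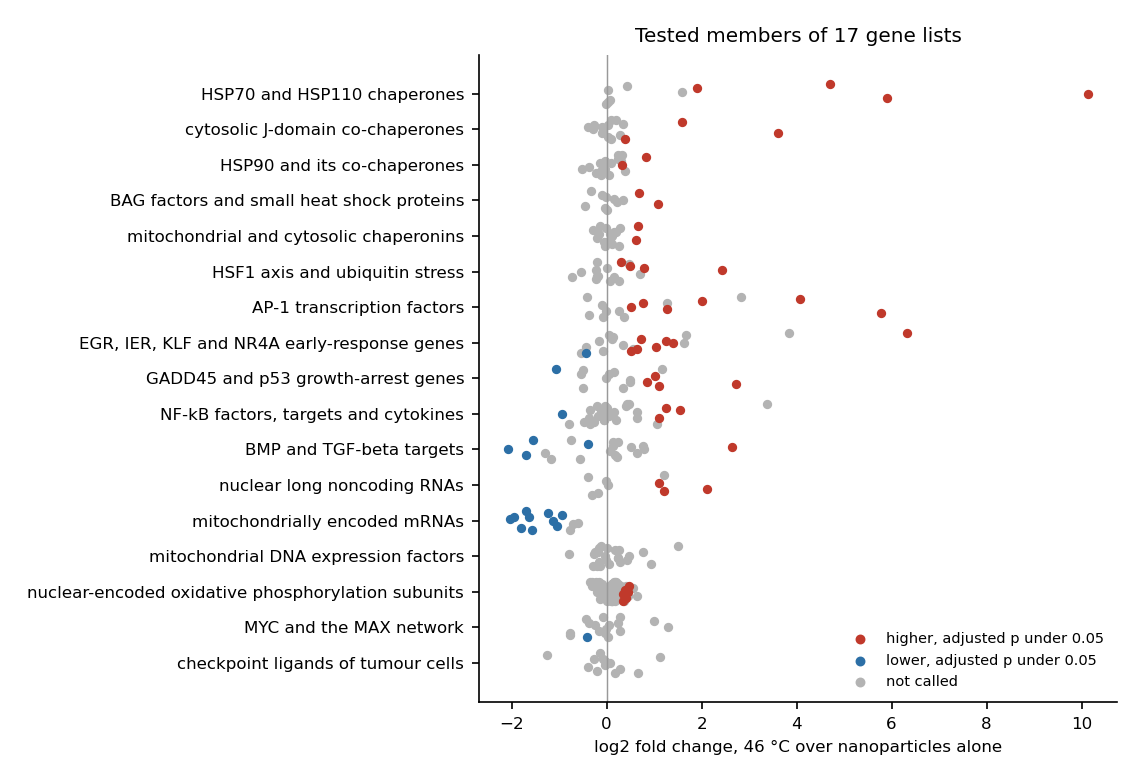
Each point is a tested gene at its log2 fold change of 46 °C over nanoparticles alone (x axis), in rows of 17 gene lists. Red points were called higher, blue points lower, and grey points did not pass. The farthest point to the right is HSPA6 at 10.14, and all 13 mitochondrially encoded mRNAs lie left of 0.

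Among HSP70 and HSP110 chaperones, 4 of 10 tested members rose and 0 fell, where 1.29% of all tested genes were higher and 0.872% lower. The list median was 1.01 on the log2 scale against 0.01 over all tested genes. Within replicates 1 and 2 the list median was 0.325, and within replicates 3 and 4 it was 1.26. HSPA6, a strictly stress-induced HSP70 encoded by a single exon at chr1:161524540-161526910, had 871, 1178, 818 and 1701 CPM in the 46 °C libraries, against 0.256, 2.41, 0 and 0.737 CPM with nanoparticles alone. The mRNA was thus close to undetected without the laser, at 1, 11, 0 and 3 counts, and abundant in each 46 °C library. The fitted log2 fold change was 10.14 ± 0.64 (SE), with an adjusted p of 2.07e-06. The major inducible HSP70 gene HSPA1A (chr6:31815464-31817946) had 1538, 1711, 1558 and 2234 CPM at 46 °C, against 38.2, 32.2, 21.8 and 22.4 CPM with nanoparticles alone, a log2 fold change of 5.90 ± 0.29 (adjusted p = 5.05e-09). Its neighbour and near-identical copy HSPA1B had 668, 1022, 781 and 1054 CPM at 46 °C, against 31.0, 26.7, 44.3 and 35.6 CPM with nanoparticles alone (log2 fold change 4.71 ± 0.16, adjusted p = 2.44e-31). No value of either group overlapped for these genes. How reads were split between HSPA1A and HSPA1B is uncertain, as is the share of HSPA6 that could come from its near-identical pseudogene copy HSPA7.

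HSPH1, the HSP110 exchange factor of HSP70, averaged 723 ± 133 CPM at 46 °C and 192 ± 9.43 CPM with nanoparticles alone (SD, n = 4 each), a log2 rise of 1.90 ± 0.13 (adjusted p = 6.12e-18). HSPA8, the housekeeping HSP70, did not pass and averaged 1301 ± 126 CPM at 46 °C and 1303 ± 292 CPM with nanoparticles alone. Its log2 fold change was 0.02, with a 95% interval of -0.14 to 0.19.

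J-domain proteins deliver unfolded clients to HSP70, and 3 of 16 cytosolic members rose, where 1.29% of all tested genes did. DNAJB1, the main J-domain partner of inducible HSP70, had 1391, 1845, 1304 and 2042 CPM at 46 °C, against 142, 138, 119.8 and 135 CPM with nanoparticles alone. Every 46 °C value lay far above the other group, and the log2 fold change was 3.62 ± 0.13 (adjusted p = 1.41e-31). DNAJB4 averaged 26.9 ± 6.13 CPM at 46 °C and 9.51 ± 6.05 CPM with nanoparticles alone (log2 fold change 1.60 ± 0.41, adjusted p = 0.0177). That call was lost without 46 °C replicate 2 (adjusted p = 0.0729) and without nanoparticle replicate 4 (0.125). DNAJA1 was called at a log2 fold change of 0.39 ± 0.11 (adjusted p = 0.0382), its groups overlapped, and the call was lost without any of 6 of the 8 libraries (adjusted p up to 0.241).

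Of the HSP90 list, 2 of 17 tested members rose, where 1.29% of all tested genes did. They were the stress-inducible and the constitutive cytosolic HSP90 themselves, while 15 partners did not pass. HSP90AA1, the inducible form, had 7507, 8707, 7063 and 8973 CPM at 46 °C, against 4850, 4582, 4299 and 4413 CPM with nanoparticles alone, a log2 rise of 0.83 ± 0.07 (adjusted p = 2.61e-16). HSP90AB1 averaged 3322 ± 341 CPM at 46 °C and 2665 ± 165 CPM with nanoparticles alone, a log2 fold change of 0.31 ± 0.07 (adjusted p = 0.00698). The call of HSP90AB1 was lost without 46 °C replicate 4 (adjusted p = 0.0593) and without nanoparticle replicate 4 (0.0644).

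Small heat shock proteins and BAG factors gave 2 rises among 11 tested members, where 1.29% of all tested genes were higher. HSPB1 (HSP27), which holds unfolded protein without ATP, averaged 546 ± 56.4 CPM at 46 °C and 344 ± 50.9 CPM with nanoparticles alone, a log2 rise of 0.68 ± 0.10 (adjusted p = 2.07e-06). BAG3, which links HSP70 to small heat shock proteins and selective autophagy, averaged 89.9 ± 21.5 CPM at 46 °C and 42.1 ± 6.77 CPM with nanoparticles alone (log2 fold change 1.09 ± 0.21, adjusted p = 0.000231). Among 18 chaperonins and mitochondrial chaperones, the paired matrix chaperonins HSPD1 (HSP60) and HSPE1 (HSP10) rose, against 1.29% over all tested genes. The other 16 did not pass. HSPD1 averaged 1034 ± 106 CPM at 46 °C and 672 ± 91.5 CPM with nanoparticles alone, a log2 rise of 0.62 ± 0.09 (adjusted p = 1.13e-06). HSPE1 rose by 0.66 ± 0.10 (adjusted p = 3.19e-06), a call lost without the replicate-pair term (adjusted p = 0.213).

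The regulator HSF1 itself did not pass, at 62.0 ± 16.8 CPM in 46 °C cells and 59.3 ± 17.6 CPM with nanoparticles alone (log2 fold change 0.02, 95% interval -0.39 to 0.43). In the list of HSF1 regulators and ubiquitin-stress genes 4 of 17 members rose, where 1.29% of all tested genes did. IER5, an early-response gene whose product promotes HSF1 activity, had 914, 1112, 782 and 1186 CPM at 46 °C, against 171, 158, 204 and 209 CPM with nanoparticles alone. The groups were far apart, with a log2 fold change of 2.44 ± 0.11 (adjusted p = 1.41e-31). The autophagy receptor SQSTM1 rose by 0.50 ± 0.11 on the log2 scale (adjusted p = 0.00152). The endoplasmic reticulum chaperone HSPA5 averaged 1436 ± 149 CPM at 46 °C and 1158 ± 116 CPM with nanoparticles alone (log2 fold change 0.31 ± 0.08, adjusted p = 0.0166). It was the only member of the 24 tested endoplasmic reticulum chaperone and unfolded protein response genes to pass, where 2.16% of all tested genes did. Its call was lost without 46 °C replicate 1 (adjusted p = 0.0816) and without nanoparticle replicate 1 (0.0537) or 4 (0.0645).

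**Figure D2:**
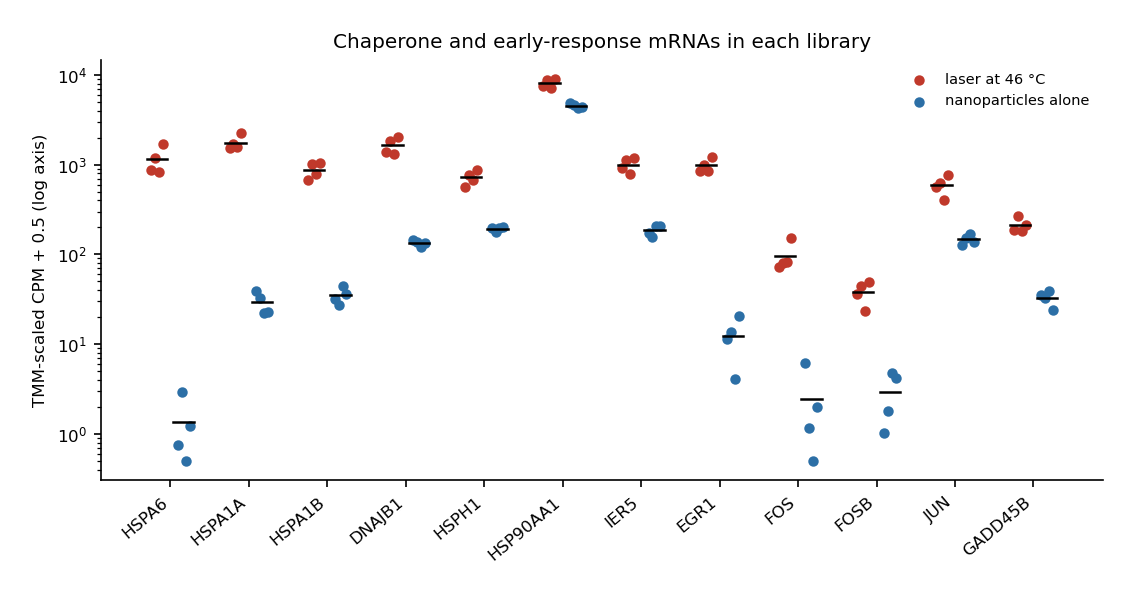
TMM-scaled CPM of 12 mRNAs in each library on a log axis, with 0.5 added so that values of 0 can be drawn. Red points are the 4 libraries at 46 °C, blue points the 4 with nanoparticles alone, and bars are group means. No red and blue points overlap for any of the 12 mRNAs, which were picked among called genes, so this was largely set by the choice. Of all tested genes 3.69% had all 46 °C values above.

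AP-1 is a dimer of FOS and JUN family proteins. Of its 15 tested genes 6 rose and 0 fell, where 1.29% of all tested genes were higher and 0.872% lower. The list median was 0.51 on the log2 scale against 0.01 over all tested genes. FOS had 71.4, 80.6, 81.1 and 150 CPM at 46 °C, against 5.63, 0.656, 0 and 1.47 CPM with nanoparticles alone. Replicate 4 was the highest at 46 °C, and replicate 3 with nanoparticles alone had no count. The log2 fold change was 5.78 ± 0.91 (adjusted p = 0.00206). FOSB averaged 37.7 ± 11.5 CPM at 46 °C and 2.45 ± 1.82 CPM with nanoparticles alone (log2 fold change 4.07 ± 0.71, adjusted p = 0.00018). JUN, at 588 ± 150 CPM in 46 °C cells and 146 ± 17.8 CPM with nanoparticles alone, had every 46 °C value above the other group (log2 fold change 2.02 ± 0.16, adjusted p = 2.01e-10). JUNB rose by 1.27 ± 0.19 on the log2 scale (adjusted p = 8.96e-07). The calls of MAFF (0.76 ± 0.19, adjusted p = 0.0149) and FOSL1 (0.51 ± 0.12, adjusted p = 0.00662) came with overlapping groups. Without nanoparticle replicate 2 FOSL1 did not pass (adjusted p = 0.102), and MAFF did not pass without any of 5 of the 8 libraries (adjusted p up to 0.108). ATF3, a stress-induced partner of the family, averaged 18.5 ± 7.85 CPM at 46 °C and 7.83 ± 3.83 CPM with nanoparticles alone and did not pass (adjusted p = 0.172).

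Of 20 EGR, IER, KLF and NR4A genes and their companions 7 rose and 1 fell, where 1.29% of all tested genes were higher and 0.872% lower. EGR1, a zinc finger factor made within minutes of a stimulus (chr5:138465490-138469315), had 846, 994, 859 and 1215 CPM at 46 °C, against 11.01, 13.1, 3.57 and 19.9 CPM with nanoparticles alone. The groups lay far apart, with a log2 fold change of 6.32 ± 0.41 (adjusted p = 1.46e-07). The Notch target HES1 rose by 1.25 ± 0.19 and KLF10, a TGF-β early-response factor, by 1.41 ± 0.29. SRF, the factor that binds the CArG box, averaged 186 ± 14.1 CPM at 46 °C and 131 ± 11.4 CPM with nanoparticles alone, a log2 rise of 0.51 ± 0.13 (adjusted p = 0.0133). That call was lost without 46 °C replicate 1 (adjusted p = 0.0811) and without nanoparticle replicate 1 (0.0897) or 2 (0.0564). IER2 (0.65 ± 0.14, adjusted p = 0.00164) and CSRNP1 (1.03 ± 0.27, adjusted p = 0.024) completed the rises, and CSRNP1 did not pass without any of 5 of the 8 libraries (adjusted p up to 0.114). The matricellular genes CCN1 and CCN2, both known as YAP and SRF targets, moved apart. CCN2 rose by 0.72 ± 0.13, whereas CCN1 averaged 422.8 ± 28.96 CPM at 46 °C and 572 ± 45.8 CPM with nanoparticles alone and fell by 0.44 ± 0.09 on the log2 scale (adjusted p = 0.00133).

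In the list of GADD45 and p53 growth-arrest genes 4 of 15 tested members rose, and 10 did not pass. For this list and the next, 1.29% of all tested genes were higher and 0.872% lower. GADD45B, an activator of stress kinases, averaged 213 ± 39.9 CPM at 46 °C and 32.3 ± 6.65 CPM with nanoparticles alone, a log2 rise of 2.73 ± 0.19 (adjusted p = 1.05e-20). GADD45A (1.02 ± 0.20), the cyclin-dependent kinase inhibitor CDKN1A (0.84 ± 0.17) and PPP1R15A, which restarts translation after stress (1.11 ± 0.13), rose too. ZMAT3, an RNA-binding p53 target, was called lower (-1.07 ± 0.30, adjusted p = 0.0337), a call lost without any of 6 of the 8 libraries (adjusted p up to 0.144). Of 16 MAP kinase feedback inhibitors, DUSP1 was called higher (1.77 ± 0.47, adjusted p = 0.022) and SPRED1 lower (-0.81 ± 0.22, adjusted p = 0.0304), the SPRED1 call being lost without any of 4 of the 8 libraries (adjusted p up to 0.167). The call of DUSP1 was lost without 46 °C replicate 2 or 4 and without nanoparticle replicate 2 or 3 (adjusted p of 0.0543 to 0.221). RGS2, which switches off G protein signals, averaged 46.3 ± 11.3 CPM at 46 °C and 4.35 ± 4.54 CPM with nanoparticles alone (log2 fold change 3.46 ± 0.58, adjusted p = 0.000231). RGS2 did not pass when only the 8 samples compared were fitted (adjusted p = 0.0574).

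The ID proteins block basic helix-loop-helix factors and are classical targets of BMP signalling, and the 3 ID genes named here moved in opposite directions. ID2 had 50.3, 84.1, 36.1 and 79.8 CPM at 46 °C, against 9.47, 10.1, 13.9 and 7.12 CPM with nanoparticles alone, a log2 rise of 2.64 ± 0.36 (adjusted p = 6.49e-08). ID1 had 38.1, 65.9, 40.4 and 53.8 CPM at 46 °C, against 127, 151, 149 and 155 CPM with nanoparticles alone, and fell by 1.55 ± 0.16 on the log2 scale (adjusted p = 3.45e-12). ID3 averaged 20.4 ± 6.58 CPM at 46 °C and 66.6 ± 9.88 CPM with nanoparticles alone and fell by 1.70 ± 0.22 (adjusted p = 1.51e-08). No values overlapped between the groups for any of the 3. In the whole list of BMP and TGF-β targets 1 of 19 rose and 4 were called lower, where 1.29% of all tested genes were higher and 0.872% lower. The list median was 0.14. The other lower calls were TGIF1 (-2.08 ± 0.59, adjusted p = 0.0337), which did not pass without any of 6 of the 8 libraries (adjusted p up to 0.148), and PMEPA1 (-0.39, adjusted p up to 0.129 without any of 3 libraries).

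The mitochondrial genome encodes 13 proteins of the respiratory chain and ATP synthase, transcribed as long precursors from both strands and cut into mRNAs. All 13 of these mRNAs were tested, 10 fell, and none rose, where 0.872% of all tested genes were lower. The list median was -1.24 on the log2 scale. They made up 4.94 ± 0.524% of all counts at 46 °C and 12 ± 0.629% with nanoparticles alone (SD, n = 4 each), with ranges of 4.5 to 5.6% and 11.1 to 12.5% that do not overlap. MT-CO3, a core subunit of cytochrome c oxidase (chrM:9207-9990), had 2701, 3492, 2710 and 3741 CPM at 46 °C, against 12640, 12900, 12570 and 13570 CPM with nanoparticles alone. Its fall was 2.03 ± 0.14 on the log2 scale (adjusted p = 2.63e-07).

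The estimates were lowest for MT-CO3, MT-ATP8 (-1.94 ± 0.16), MT-ND3 (-1.80 ± 0.16), MT-CO2 (-1.69 ± 0.12) and MT-ATP6 (-1.57 ± 0.16), which neighbour each other, and for MT-ND6. The complex I genes MT-ND1 (-1.24 ± 0.19), MT-ND2 (-1.12 ± 0.13) and MT-ND4 (-0.94 ± 0.17) and the cytochrome b gene MT-CYB (-1.05 ± 0.22) had estimates nearer to 0. The call of MT-CYB (adjusted p = 0.0212) was lost without any of 6 of the 8 libraries (adjusted p up to 0.0764). MT-CO1 (-0.70 ± 0.22), MT-ND5 (-0.76 ± 0.22) and MT-ND4L (-0.60 ± 0.21) did not pass, with adjusted p of 0.144, 0.1 and 0.185. Their libraries still did not overlap, at 2885 to 4516 CPM at 46 °C and 4990 to 7283 CPM with nanoparticles alone for MT-CO1. MT-ND6, the only coding gene of the light strand, was called at -1.62 ± 0.39 (adjusted p = 0.0469), and the call was lost without any of 7 of the 8 libraries. Differences between the falls of single mRNAs were not tested. MT-ATP8 overlaps MT-ATP6, which abuts MT-CO3, and how the authors divided reads among them is not stated.

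Of 24 nuclear-encoded factors that copy, process or translate mitochondrial DNA and RNA 0 passed, where 2.16% of all tested genes did, and the list median was 0.00 on the log2 scale. Among 74 nuclear-encoded subunits of the same respiratory complexes 7 rose and 0 fell, with a median of 0.13, where 1.29% of all tested genes were higher. UQCRQ, a complex III subunit, averaged 874 ± 96.5 CPM at 46 °C and 640.5 ± 53.2 CPM with nanoparticles alone (log2 fold change 0.45 ± 0.09, adjusted p = 0.00118), and COX6C of complex IV rose by 0.47 ± 0.10. ATP5F1E of ATP synthase rose by 0.39 ± 0.09, a call lost without 46 °C replicate 2 (adjusted p = 0.0729).

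**Figure D3:**
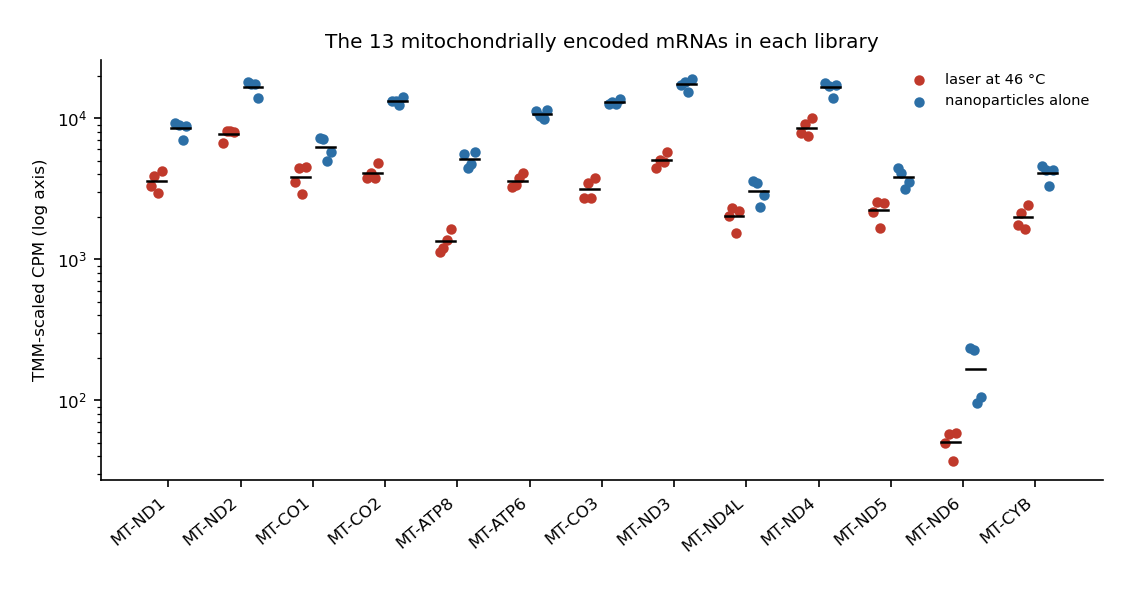
TMM-scaled CPM on a log axis for the 13 mitochondrially encoded mRNAs in each library, in their order along the mitochondrial genome. Red points are 46 °C, blue points nanoparticles alone, and bars are group means. The red points lie below the blue points for all 13.

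Several transcripts without a long reading frame rose. The nuclear long noncoding RNA MALAT1, which resides in splicing speckles, had 2851, 3225, 3140 and 4107 CPM at 46 °C, against 1498, 1166, 1817 and 1766 CPM with nanoparticles alone (log2 fold change 1.11 ± 0.14, adjusted p = 0.00024). NEAT1, the scaffold of paraspeckles, rose by 1.204 ± 0.18 and KCNQ1OT1 by 2.10 ± 0.30. These were 3 of the 9 nuclear noncoding RNAs tested as signs of RNA quality, where 1.29% of all tested genes were higher. The list median was 0.03 on the log2 scale, and 5 of the 9 estimates were positive. The summed level of the list, mostly MALAT1, ran from 3306 to 4618 CPM at 46 °C and from 1619 to 2275 CPM with nanoparticles alone. Replication-dependent histone mRNAs, normally without a poly(A) tail, gave 0 calls among 17, although 15 of the 17 estimates were positive, with a median of 0.65. The part of RNA quality in these results was not tested.

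RMRP, the RNA of the ribonuclease that trims ribosomal RNA precursors, had 52.5, 61.8, 54.1 and 53.5 CPM at 46 °C, against 0, 0, 3.93 and 1.72 CPM with nanoparticles alone. The 46 °C values were close together and all above the other group (log2 fold change 5.55 ± 0.88, adjusted p = 0.00234). RMRP was 1 of 2 small structured RNAs tested, and the other did not pass, at a log2 fold change of -0.29. These libraries read polyadenylated ends, and how far the counts reflect the whole level of RMRP was not tested. LINC00324, a long noncoding RNA on chromosome 17, averaged 158 ± 22.2 CPM at 46 °C and 10.1 ± 2.38 CPM with nanoparticles alone (log2 fold change 3.99 ± 0.37, adjusted p = 4.23e-06). The transcript AC010624.5, for which no position or role was found in the annotation used here, averaged 714 ± 120 CPM at 46 °C and 6.30 ± 4.06 CPM with nanoparticles alone (log2 fold change 6.77 ± 0.58). EIF3C, a translation initiation subunit with the near-identical copy EIF3CL and therefore an uncertain count, averaged 49.8 ± 12.4 CPM at 46 °C and 3.98 ± 4.01 CPM with nanoparticles alone. Its call was lost when only the 8 samples compared were fitted (adjusted p = 0.0675).

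Outside the mitochondrial genome, the falls of clearest size were in ID1, ID3 and DDIT4. DDIT4 (REDD1), a stress-induced inhibitor of the growth kinase mTORC1, had 68.6, 79.4, 39.2 and 59.1 CPM at 46 °C, against 177, 166, 138 and 139 CPM with nanoparticles alone, and fell by 1.36 ± 0.17 on the log2 scale (adjusted p = 1.38e-08). EDN1, which encodes endothelin, averaged 5.36 ± 1.85 CPM at 46 °C and 19.4 ± 8.67 CPM with nanoparticles alone (log2 fold change -1.90 ± 0.48, adjusted p = 0.0184). MEX3A, FIZ1, DDHD1, CPTP and the O-GlcNAc transferase gene OGT were called at log2 fold changes of -1.66, -1.46, -1.45, -1.39 and -1.36 at means of 16.6 to 27.9 CPM with nanoparticles alone. The calls of EDN1 and of each of these 5 genes were lost without some single libraries, with adjusted p up to 0.198.

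Of 30 NF-κB factors, targets and cytokines 3 were higher, where 1.29% of all tested genes were, and 1 was lower, where 0.872% were. The chemokine CXCL8 averaged 184 ± 71.9 CPM at 46 °C and 76.6 ± 26.8 CPM with nanoparticles alone, a log2 rise of 1.26 ± 0.15 within replicate pairs (adjusted p = 6.34e-10). That call was lost without the replicate-pair term (adjusted p = 0.16). IL1A rose by 1.54 ± 0.32 (adjusted p = 0.00138). IL1B rose by 1.10 ± 0.28 (adjusted p = 0.0156), a call lost without 46 °C replicate 4 (adjusted p = 0.18) and without nanoparticle replicate 1 (0.0763) or 2 (0.0564). NFKBIA, the inhibitor that retains NF-κB in the cytoplasm, averaged 68.7 ± 18.3 CPM at 46 °C and 131 ± 10.8 CPM with nanoparticles alone and fell by 0.94 ± 0.15 (adjusted p = 8.36e-06).

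No member passed among 23 interferon-stimulated genes, 17 class I antigen presentation genes, 13 checkpoint ligands of tumour cells or 26 BCL2 family and cell death genes, at a background of 2.16% called. MYC had 11.5, 14.6, 34.9 and 47.2 CPM at 46 °C, against 26.1, 15.97, 23.9 and 22.4 CPM with nanoparticles alone. The 46 °C values straddled the other group and the log2 fold change of 0.23 had a 95% interval of -0.40 to 0.86. Its partner MAX was at -0.08 (-0.39 to 0.23), the checkpoint ligand CD274 (PD-L1) at -0.39 (-1.04 to 0.26) and the phagocytosis inhibitor CD47 at -0.04 (-0.44 to 0.35). AURKA was the only called member of 17 MYC network genes, lower by 0.40 ± 0.11 on the log2 scale, and that call was lost without any of 6 of the 8 libraries (adjusted p up to 0.182).

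The change at 46 °C was also estimated separately within replicates 1 and 2 and within replicates 3 and 4. All 263 called genes had the same direction in both, as the plot of the pair estimates shows. Both pairs had entered the calls, so this agreement was largely set by the choice of genes and is no independent check. Of the 263, 133 were called within replicates 1 and 2 and 83 within replicates 3 and 4. HSPA1A was higher by 5.53 within replicates 1 and 2 and by 6.42 within replicates 3 and 4, DNAJB1 by 3.53 and 3.71, EGR1 by 6.24 and 6.36, and MT-CO3 lower at -2.04 and -2.02. With the fit split this way, 104 genes were higher and 79 lower within replicates 1 and 2, and 71 higher and 31 lower within replicates 3 and 4. The difference between the pairs was called for 0 genes (0% of 12149) by edgeR's quasi-likelihood test, while 660 genes had an unadjusted p under 0.05, and the lowest adjusted p was 0.23. limma-voom also called 0, and DESeq2 called 9. RMRP showed the widest gap of the genes described above, at 10.90 and 4.30, from counts of 0 and 0 in the first pair of libraries with nanoparticles alone and 11 and 7 in the second, and its difference did not pass.

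**Figure D4:**
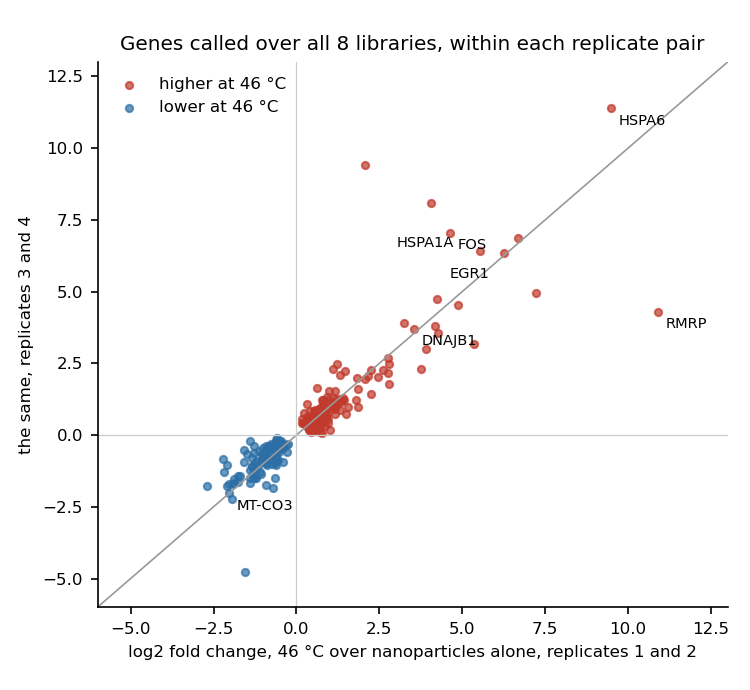
Log2 fold change of 46 °C over nanoparticles alone within replicates 1 and 2 (x axis) and within replicates 3 and 4 (y axis) for the 263 called genes. Red points are genes called higher and blue points genes called lower, and the grey diagonal marks equal values. No point lies in a quadrant of opposite signs, though both pairs had entered the calls.

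Hotter laser settings were compared with 46 °C directly. The 46 °C group was higher than the 50 °C group in 172 genes (1.42%) and lower in 169 (1.39%), and higher than the 54 °C group in 92 genes (0.757%) and lower in 68 (0.56%). Both comparisons share the 46 °C libraries with each other and with the comparison against nanoparticles alone. Scaling by library totals gave 725 higher and 68 lower against 50 °C, and 213 higher and 48 lower against 54 °C. The lower count against 50 °C was 105 without 50 °C replicate 1 and 110 without 50 °C replicate 3. Against 54 °C, 61 genes were higher without 46 °C replicate 2 and 42 were lower without 54 °C replicate 1. Without the replicate-pair term there were 74 higher and 71 lower against 50 °C, and 48 higher and 29 lower against 54 °C.

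HSPA6, HSPA1A, HSPA1B and HSPH1 were higher at 46 °C than at either hotter setting. HSPA1A averaged 28.6 ± 7.94 CPM with nanoparticles alone and 1760 ± 325 CPM at 46 °C, then 20.97 ± 8.90 CPM at 50 °C and 23.4 ± 5.23 CPM at 54 °C, so that 46 °C exceeded 50 °C by 6.40 ± 0.30 and 54 °C by 6.23 ± 0.29 on the log2 scale. HSPA6 averaged 1142 ± 405 CPM at 46 °C and 1.84 ± 2.18 CPM at 50 °C. It had no count in the 4 libraries at 54 °C, which, with 3 counts over the group as the limit, makes 46 °C at least 10300-fold higher (counting error only). DNAJB1 averaged 129 CPM at 50 °C and 116 CPM at 54 °C, and EGR1 19.1 and 18.3 CPM, near their levels with nanoparticles alone. CCN1 was lower at 46 °C than at 50 °C by 1.29 on the log2 scale and than at 54 °C by 1.05 (adjusted p = 6.73e-20 and 1.48e-15).

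Mitochondrially encoded mRNAs were lower at 46 °C than at 50 °C for 12 of 13 and than at 54 °C for 10 of 13. Over all tested genes these shares were 1.39% and 0.56%. MT-CO3 averaged 12922 ± 458 CPM with nanoparticles alone and 3161 ± 536 CPM at 46 °C, then 19672 ± 3634 CPM at 50 °C and 17081 ± 877 CPM at 54 °C. MT-ND3 averaged 17436 ± 1504, 5024 ± 537, 15796 ± 2819 and 17361 ± 1727 CPM in the same groups, and MT-ND6 averaged 166 ± 75.1, 50.9 ± 10.0, 116 ± 24.5 and 29.1 ± 9.40 CPM. The differences of MT-ND6 from 46 °C at 50 and 54 °C did not pass (adjusted p = 0.162 and 0.541), nor did those of MT-CO1 (0.283) and MT-ND4L (0.342) at 54 °C.

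RMRP averaged 1.41 ± 1.86 CPM with nanoparticles alone and 55.5 ± 4.24 at 46 °C, then 65.1 ± 15.1 at 50 °C and 32.3 ± 18.6 at 54 °C, and neither difference from 46 °C passed. MALAT1 averaged 1562 ± 299, 3331 ± 542, 3725 ± 566 and 4183 ± 546 CPM in that order, and DDIT4 155 ± 19.9, 61.6 ± 17.1, 63.7 ± 33.5 and 69.3 ± 20.8 CPM, again with neither difference from 46 °C passing. LINC00324 was at 158 ± 22.2 CPM at 46 °C and 260 ± 52.1 CPM at 50 °C (adjusted p = 0.29), but was higher at 46 °C than at 54 °C by 2.07 on the log2 scale (adjusted p = 0.00173). NEAT1 was lower at 46 °C than at 54 °C by 0.84 on the log2 scale (adjusted p = 0.0021).

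**Figure D5:**
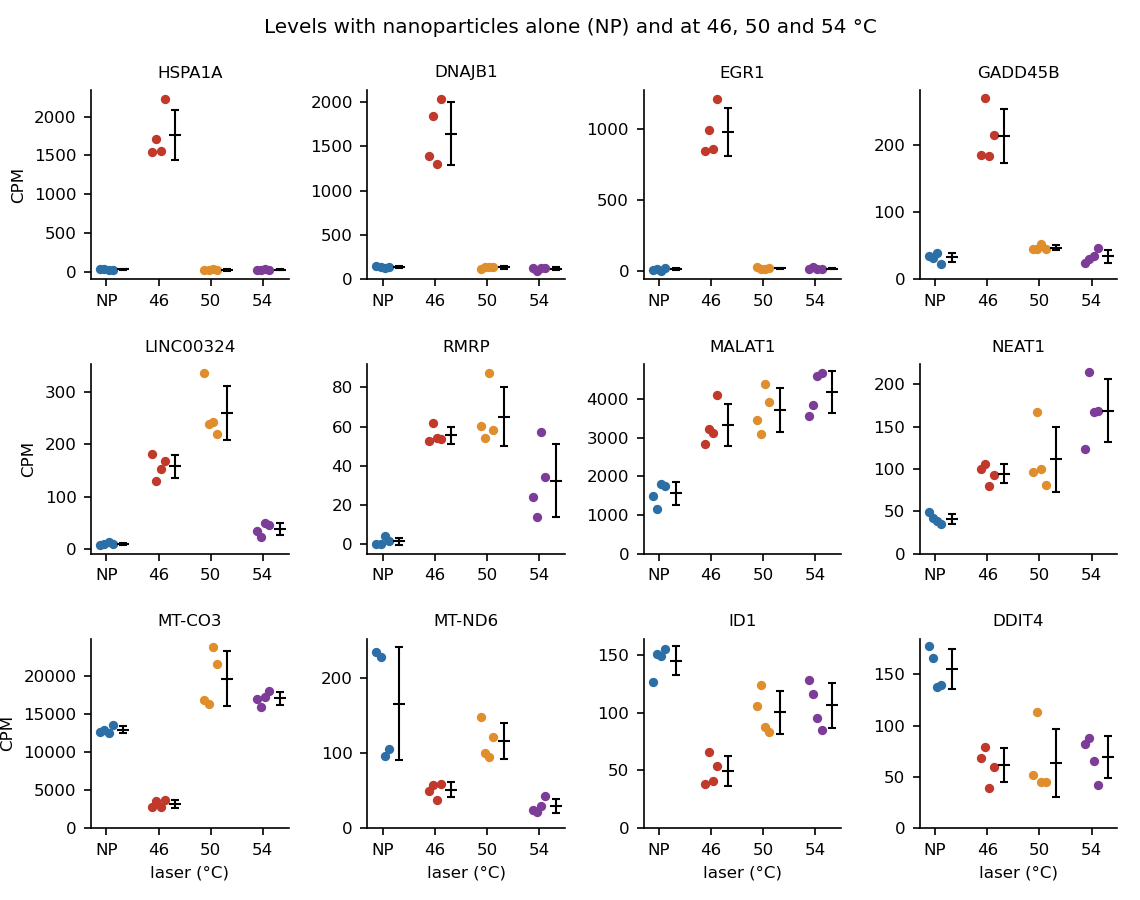
CPM of 12 genes, 4 libraries per group, from nanoparticles alone (NP) up through laser settings of 46, 50 and 54 °C, with group mean and SD as black bars. HSPA1A, DNAJB1, EGR1 and GADD45B stand high at 46 °C only, MT-CO3 is lowest there, and MALAT1 and RMRP are higher at all 3 laser settings than the mean with nanoparticles alone.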

How the data were processed

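RNA was measured in 20 MDA-MB-231 samples by 3′ end sequencing. Per the submitters' processing notes, STAR, Salmon and GRCh38 were used, and the deposited values are estimated counts per gene by the authors, of which 1.85 to 2.29% in these 8 libraries were not whole. No source used here gives the annotation, the strand setting or any use of molecular identifiers, so overlapping and antisense genes (DNAJB1 with TECR, FOSB with ERCC1, KCNQ1OT1 with KCNQ1, DDIT4 with DDIT4-AS1) are uncertain. Counts were rounded to whole numbers, genes were kept by edgeR's filter (minimum count 10, minimum total 15), and libraries were scaled by TMM. edgeR 4.0.16 in R 4.3.3 fitted all 20 samples with robust quasi-likelihood and a term for replicates 1 and 2 against 3 and 4. P-values were adjusted over the 12149 genes tested, with 0.05 as threshold. CPM values are TMM-scaled without a prior, and intervals are 95%. The SE of a log2 fold change is its absolute value divided by the square root of the test's F statistic. Intervals were built from that SE, so both are approximate, above all where a group has counts near the floor. The fit was tested on simulated data. Alternatives were DESeq2 1.42.0, limma-voom (limma 3.58.1), other scalings and filters, the replicate number as a block, only the 8 samples, each replicate pair alone and each library left out.

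The 4 comparisons and 46 gene lists were chosen with earlier results of these data known. Genes named were the markers and a fixed list, the 15 largest non-overlapping rises and falls among called genes with a mean of at least 10 CPM, up to 4 called members of smallest p per list, and genes differing most from 50 °C; 15 other list members were added with their values known. Total counts of the 8 libraries limit the precision, and 0 columns of the table were left unused. 1 called gene of the HSF1 list is counted but not reported here.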

Additional observations from a re-analysis of the deposited data

Results flagged for a closer look

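Within groups of 4 libraries, 1 value stood apart from the other 3 in 15 of 244 groups tested by Dixon's criterion, and chance flags about 1 in 20 groups. At 46 °C, the fourth replicate was high for FOS (150.5 CPM, others 71.4 to 81.1) and low for AURKA (195 CPM, others 231 to 236). The second replicate at 46 °C was high for ATP5F1E (1585 CPM, others 1235 to 1273) and low for NFKBIA (41.5 CPM, others 74.0 to 80.7). The third replicate at 46 °C was low for MAFF (46.2 CPM, others 103 to 106), and the first was low for MT-ND2 (6690 CPM, others 7987 to 8134).

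With nanoparticles alone, the fourth replicate was low for ATF3 (2.21 CPM, others 8.58 to 10.3), RPL6 (2404 CPM, others 2572 to 2607) and MT-ND2 (14000 CPM, others 17350 to 18010). It was high for EIF3H (329.9 CPM, others 283 to 284.5) and IER2 (153.5 CPM, others 118 to 123). The first replicate was low for CD274 (14.6 CPM, others 24.3 to 25.4) and DDHD1 (9.73 CPM, others 17.7 to 19.5), and the third was high for HSPD1 (809 CPM, others 618 to 632) and TPM4 (969.5 CPM, others 805 to 819).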

How the results depend on the processing

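Of 110 called genes named, 36 were called under every alternative, 60 without each library in turn, and none reversed. Counts are given as higher and lower. Against nanoparticles alone they were 75 and 42 without the replicate-pair term, 104 higher within replicates 1 and 2, 71 and 31 within replicates 3 and 4, and 93 to 150 and 57 to 113 with 1 library left out. Against 50 °C they were 74 and 71 without the pair term, 725 and 68 with library totals, 68 and 84 within replicates 1 and 2, 70 and 66 within replicates 3 and 4, and 118 to 150 and 105 to 154 with 1 library left out. Against 54 °C they were 48 and 29 without the pair term, 46 and 28 within replicates 3 and 4, and 61 to 113 and 42 to 67 with 1 library left out, with 144 (DESeq2), 156 (limma-voom) and 213 (library totals) higher. The difference between pairs gave 4 and 5 genes with DESeq2, 1 lower without the filter (RMRP), and 0 to 2 either way with 1 library left out. The cause was not tested. With library totals 74.9% of calls against nanoparticles alone were higher (227 and 76), against 59.7% with TMM.

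Among genes that did not pass, HSPA8 was at -0.0026 without the pair term and -0.154 within replicates 3 and 4, CD47 at 0.0101 with library totals and 0.0525 within replicates 3 and 4, and HSF1 (-0.299), MYC (-0.680) and MAX (0.0769) turned within replicates 1 and 2. With 1 library left out they spanned -0.0398 to 0.0752 (HSPA8), -0.174 to 0.0415 (CD47), -0.158 to 0.315 (HSF1), -0.132 to 0.5 (MYC) and -0.140 to 0.000491 (MAX).

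Replicate numbers did not pair the samples: same-numbered deviations correlated at 0.0258 to 0.0414, and not every sample correlated best with its own number. The replicate block gave 161 and 108 calls against nanoparticles alone, 179 and 174 against 50 °C and 90 and 70 against 54 °C.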

Other observations

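Coding genes called higher at 46 °C had shorter transcripts than those called lower, with a median longest transcript of 2344 bases for 143 higher genes, 4211 bases for 94 lower genes and 3742 bases for all 11266 coding genes tested. Levels differed too, with median CPM of 183, 84.1 and 23.4 in the same sets. The part of level in the length difference was not tested. Single-exon genes were 6 of 143 coding genes called higher (4.2%), 5 of 44 higher by at least 2-fold (11.4%), 1 of 99 higher by less (1.01%), 1 of 94 called lower (1.06%) and 158 of all 11266 (1.4%). These differences were not tested.

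Over all tested genes 1.29% were higher and 0.872% lower, and several of the following counts are near those shares. Cytosolic ribosomal protein mRNAs gave 6 higher and 1 lower call among 80, at a median log2 fold change of 0.14, and 59 of the 80 estimates were positive. In the mRNA decay and AU-rich element list the median was -0.30, with 0 higher and 2 lower calls among 35. Splicing regulators and CLK kinases had 4 higher and 2 lower of 36, mitosis genes 1 higher and 3 lower of 35, proteasome subunits 1 higher and 2 lower of 38, and NRF2 targets 3 higher and 0 lower of 27. No member of the lysosome list (25 tested) or the cholesterol synthesis list (21 tested) passed.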
